A study of Mus musculus with 6 samples.

Results

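The 9 genes described are epithelial genes whose products address intraepithelial lymphocytes, followed here in single cells from the small-intestinal epithelium of mice: Btnl1, Btnl2, Btnl4, Btnl6, Il15, Il15ra, Il7, Ccl25 and Tnfrsf14. They were picked by symbol, and all 9 were among the 27998 genes of the deposited count tables. The series held 3 libraries labelled Itgb7 KO and 3 labelled wild-type, from C57BL/6J mice of 8 weeks, each made from epithelial cells of the small intestine with the 10x 3′ version 2 kit. Itgb7 encodes the β7 subunit, which pairs with αE on intraepithelial lymphocytes to hold E-cadherin on epithelial cells and with α4 on gut-homing lymphocytes. The labels give neither the design of the knockout allele nor the number of animals behind a library, so each p-value reflects the spread among these libraries alone, some of which may be technical.

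Intraepithelial lymphocytes sit between enterocytes and depend on signals that the epithelium itself makes. Butyrophilin-like proteins on mouse enterocytes, above all Btnl1 paired with Btnl6, select and maintain the intestinal γδ T cells that use Vγ7. IL-15 is presented in trans, bound to the IL-15 receptor α chain (Il15ra) on the same cell, to lymphocytes that carry the β and γ chains, and IL-7 maintains γδ T cells and other lymphocytes. The chemokine CCL25 draws CCR9-positive lymphocytes into the small intestine, and HVEM, the product of Tnfrsf14, is a receptor on epithelial cells that is engaged by CD160, BTLA and LIGHT.

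The 4 butyrophilin-like genes lie within 163 kb of chromosome 17 (GRCm38, GENCODE M21), with no annotated gene overlapping any of them. Btnl2 spans chr17:34354822-34369495 and Btnl1 chr17:34377132-34386028, both on the plus strand. Btnl4 spans chr17:34466562-34477318 and Btnl6 chr17:34507804-34517352, both on the minus strand. The remaining members lie at chr8:82331632-82403222 (Il15, minus strand), chr2:11705290-11734317 (Il15ra, plus), chr3:7569994-7613760 (Il7, minus), chr8:4325210-4360020 (Ccl25, plus) and chr4:154921933-154928563 (Tnfrsf14, minus). Il7 overlaps the antisense gene Gm16685 and Ccl25 overlaps Elavl1 on the opposite strand, and the sources used here do not say whether the counting used strand.

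RefSeq promoter windows (GRCm38.p6, 250 bases before to 50 after a start site) were given for 7 of the 9 members. Those of the butyrophilin-like genes and of the inner start site of Ccl25 are printed because the differences between mature enterocyte-like and stem-like cells described below were larger for Btnl1, Btnl2 and Ccl25 than for Btnl4 and Btnl6, and that of Btnl4 depended on how cells were clustered. Capitals mark exact matches to any of 4 motifs, searched on both strands and chosen with these sequences in view. The letters searched were CAAAGTCC for HNF4 and TTTATG for the CDX factors, which are intestinal regulators. For the zinc finger factors of the GATA family they were AGATAA, and the last motif was that of interferon regulatory factors. The windows lie at chr17:34376882-34377181 (Btnl1, plus), chr17:34354572-34354871 (Btnl2, plus), chr17:34475888-34476187 (Btnl4, minus), chr17:34517303-34517602 (Btnl6, minus) and chr8:4349338-4349637 (Ccl25, plus).
Btnl1: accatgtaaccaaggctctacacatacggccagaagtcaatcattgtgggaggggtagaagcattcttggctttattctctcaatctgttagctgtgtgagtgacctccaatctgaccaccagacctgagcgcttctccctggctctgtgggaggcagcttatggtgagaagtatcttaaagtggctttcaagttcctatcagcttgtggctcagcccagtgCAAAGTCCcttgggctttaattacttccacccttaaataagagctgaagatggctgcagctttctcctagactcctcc
Btnl2: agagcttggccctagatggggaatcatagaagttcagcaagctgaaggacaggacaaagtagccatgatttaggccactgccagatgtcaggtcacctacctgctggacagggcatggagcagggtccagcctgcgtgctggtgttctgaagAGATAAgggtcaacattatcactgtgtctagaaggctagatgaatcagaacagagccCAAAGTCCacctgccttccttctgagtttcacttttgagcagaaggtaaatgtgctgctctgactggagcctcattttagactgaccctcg
Btnl4: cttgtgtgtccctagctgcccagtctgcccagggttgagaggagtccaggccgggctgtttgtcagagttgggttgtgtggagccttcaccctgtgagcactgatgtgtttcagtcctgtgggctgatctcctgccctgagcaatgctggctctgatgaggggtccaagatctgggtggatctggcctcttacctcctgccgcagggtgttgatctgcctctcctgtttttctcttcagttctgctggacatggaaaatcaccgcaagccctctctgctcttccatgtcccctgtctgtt
Btnl6: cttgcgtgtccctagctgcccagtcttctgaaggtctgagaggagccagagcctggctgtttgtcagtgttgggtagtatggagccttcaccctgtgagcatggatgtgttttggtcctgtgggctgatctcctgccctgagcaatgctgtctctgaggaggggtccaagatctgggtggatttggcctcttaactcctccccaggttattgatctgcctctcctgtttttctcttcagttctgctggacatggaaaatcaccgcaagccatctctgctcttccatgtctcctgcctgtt
Ccl25: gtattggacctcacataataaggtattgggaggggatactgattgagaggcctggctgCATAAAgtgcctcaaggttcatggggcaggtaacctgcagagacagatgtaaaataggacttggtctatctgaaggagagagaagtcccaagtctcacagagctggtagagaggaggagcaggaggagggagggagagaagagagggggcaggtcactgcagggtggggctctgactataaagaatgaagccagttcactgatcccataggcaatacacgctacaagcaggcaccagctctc

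The HNF4 motif was found in the Btnl1 window, with its first base at -28 from the start site, and in the Btnl2 window, at -41. Of 32851 promoter windows of the same length, 1.42% hold it. Btnl2 also held the GATA motif at -98, which 11.2% of the windows hold, and the Ccl25 window the CDX motif at -192 on the opposite strand, which 11.9% hold. None of the 4 motifs was in the Btnl4 or Btnl6 windows, and among the members not printed the interferon motif was in the Tnfrsf14 window at -64 (3.44% of windows). The 2 windows of Il15ra and that of the outer start site of Ccl25, also not printed, held none. The mature over stem-like log2 ratio was 1.09 for Il15ra, 0.76 for Btnl6 and 0.56 for Btnl4. A link between motifs and these ratios was not tested. The Btnl4 and Btnl6 windows were 91.1% identical, against 49.5% to 52.5% for the other pairs. Matches are a description of these letters and not evidence of binding.

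The same pair is alike where the reads fall. Over the last 500 bases of the longest transcript, Btnl4 and Btnl6 were 90.2% identical and the other pairs 46.7% to 51.8%. Of the 451 stretches of 50 bases in that end, Btnl4 shared 36 and Btnl6 shared 51 with the pseudogene Btnl7-ps, and 20 with each other, while Btnl1 and Btnl2 shared none with any other annotated gene. The values of Btnl4 and Btnl6 are thus less certain than those of Btnl1 and Btnl2. Of the 451 stretches of Tnfrsf14, 24 occurred in other annotated genes.

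The libraries labelled Itgb7 KO held 28475253 to 62224718 UMIs (each a captured RNA molecule) and the wild-type libraries 63316811 to 76133693. Median UMIs per barcode ran from 6079.5 to 19529 in the libraries labelled Itgb7 KO and from 11920.5 to 22384 in wild-type libraries, and replicate 1 of each group was the deepest per cell. The smallest total of any barcode differed between libraries from 1417 to 13621 UMIs. Of 26153 barcodes 25076 cells were kept, in 29 clusters, 8 classes named from markers and 3627 unnamed cells. Pairs of libraries shared 12 to 42 barcode sequences. Itgb7 itself gave 18, 33 and 12 UMIs in the libraries labelled Itgb7 KO and 3, 8 and 2 in wild-type libraries. It was thus more frequent under the knockout label. A 3′ tag may lie outside the deleted part and checks nothing, so every direction below rests on the labels alone.

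Levels are CPM (UMI counts scaled to the same total in every class and library), with the UMIs of a gene and of its class summed per library, since cells are not replicates. The tested classes were stem-like (3721 cells), transit-amplifying-like (4327), lower-villus enterocyte-like (5288), mature enterocyte-like (2852), goblet-like (4275) and enteroendocrine-like cells (559). None of the members took part in the clustering. Of the markers of the villus tip, Nt5e had 0 UMIs in the mature enterocyte-like class, and Ada and Slc28a2 stood at 1.95 and 0.90 CPM.

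Markers of other cells were low in sum, though some single markers had more UMIs than the lowest members. In kept cells Il7 had 308 UMIs and Tnfrsf14 had 168. All 14 T cell markers in the files had at least 1 UMI, with Ccl5 highest (129 UMIs). Their summed level in kept cells was 0.15 to 0.27 CPM in libraries labelled Itgb7 KO and 0.22 to 3.01 CPM in wild-type libraries. Of 12 myeloid markers, C1qc, Itgax and Clec9a were at 0, with sums of 2.91 to 6.18 CPM in libraries labelled Itgb7 KO and 4.10 to 7.03 CPM in wild-type libraries. Of 10 stromal and endothelial markers, Col1a2, Col3a1, Dcn, Lum, Cdh5 and Kdr were at 0, and Vim (1049 UMIs) and Pecam1 (187 UMIs) were highest. Their sums were 3.66 to 6.45 CPM in libraries labelled Itgb7 KO and 2.02 to 4.75 CPM in wild-type libraries. All 6 B and plasma cell markers in the files had UMIs, with Cd79b highest (519 UMIs). Their sums were 1.43 to 2.28 CPM in libraries labelled Itgb7 KO and 1.65 to 1.86 CPM in wild-type libraries. The part of such cells in the levels of the members was not tested.

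The first comparison asks whether the epithelium of Itgb7 KO mice, whose lymphocytes would lack this integrin subunit, carries other levels of these genes. No member passed the test in any class. In all kept cells 0 of 9 tested members passed edgeR's quasi-likelihood test at an adjusted p of 0.05, against 0.00738% of the 13556 genes tested. By class, 0 of 7 members passed in stem-like cells (0.00908% of genes), 0 of 8 in transit-amplifying-like cells (0.00893%), 0 of 8 in lower-villus enterocyte-like cells (0.0092%), 0 of 7 in mature enterocyte-like cells (0%), 0 of 6 in goblet-like cells (0.00906%) and 0 of 1 in enteroendocrine-like cells (0%). Across these 46 tests the lowest adjusted p was 0.926, 0 members reached an unadjusted p of 0.05, and DESeq2 called 0. Of all genes tested, an unadjusted p under 0.05 was reached by 3.1% in all kept cells. By class the share was 3.54% (mature enterocyte-like), 3.79% (lower-villus), 2.7% (transit-amplifying-like), 3.01% (stem-like), 2.06% (goblet-like) and 1.01% (enteroendocrine-like). A missed threshold does not show that levels were equal. Members left out of a test had too few UMIs in that class.

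**Figure D1:**
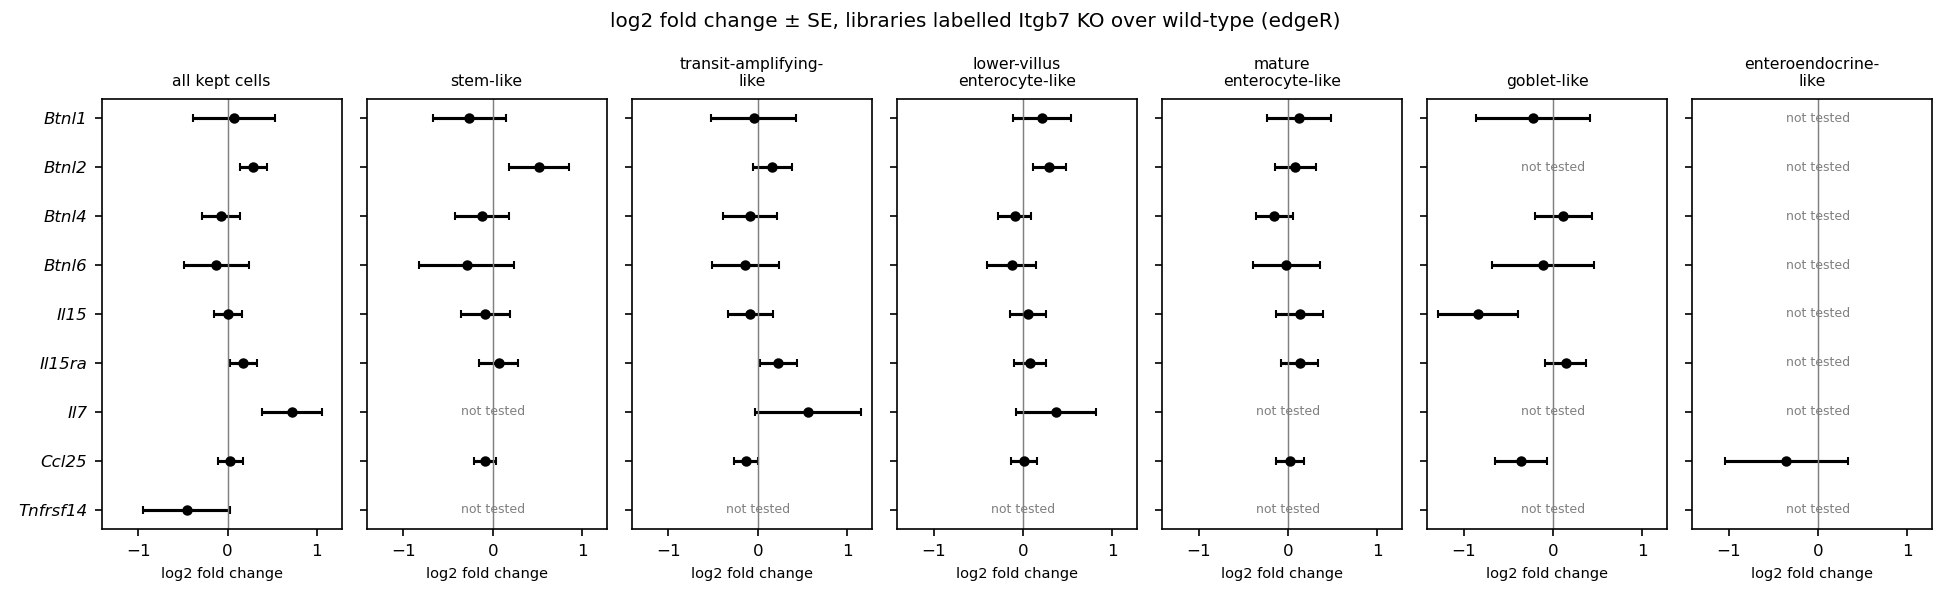
log2 fold change of each member, Itgb7 KO label over wild-type, with its standard error (bars, 3 libraries a group, edgeR), in all kept cells and 6 cell classes. Estimates lie on both sides of 0. Il7 in all kept cells (0.72) and Il15 in goblet-like cells (-0.84) lie farthest from it, and none passed the test.

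The medians of the tested members were 0.03 in all kept cells, -0.08 for stem-like, -0.06 for transit-amplifying-like, 0.07 for lower-villus enterocyte-like, 0.08 for mature enterocyte-like and -0.17 for goblet-like cells (log2 fold change), while the medians of all genes tested lay between -0.01 and 0.00. In mature enterocyte-like cells, where the members were mostly highest, the estimates ran from -0.15 for Btnl4 to 0.13 for Il15ra. In goblet-like cells the lowest was Il15, at -0.84 ± 0.45 (SE), and with doublets kept its log2 fold change was -0.26 ± 0.46. Its levels there were 1.12, 1.33 and 0.27 CPM in libraries labelled Itgb7 KO and 1.94, 2.35 and 1.26 CPM in wild-type libraries, on 24 and 64 UMIs (adjusted p = 0.999, edgeR). Itgb7 KO replicate 2 lay above wild-type replicate 3, and the libraries labelled Itgb7 KO were otherwise below the wild-type ones.

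Of the 54 pairs of a member and a class, the groups did not overlap in 2 with the libraries labelled Itgb7 KO higher and in 0 with them lower. The 2 were Il7 in goblet-like cells, at 1.12, 0.83 and 1.09 CPM in libraries labelled Itgb7 KO and 0.40, 0.22 and 0.54 CPM in wild-type libraries (24 and 14 UMIs), and Btnl4 in enteroendocrine-like cells, at 3.36, 6.64 and 1.96 CPM in libraries labelled Itgb7 KO and 1.01, 1.92 and 0 CPM in wild-type libraries (10 and 2 UMIs). Both had too few UMIs for edgeR's test. The share of all genes tested with every library labelled Itgb7 KO above every wild-type library was 2.69% in goblet-like and 2.31% in enteroendocrine-like cells, and elsewhere 3.08% (mature enterocyte-like), 3.46% (lower-villus), 3.46% (transit-amplifying-like) and 2.91% (stem-like). With every one below, it was 4.14% in goblet-like and 2.17% in enteroendocrine-like cells, and elsewhere 5.49% (mature enterocyte-like), 6.22% (lower-villus), 4.39% (transit-amplifying-like) and 4.39% (stem-like). For 3 libraries against 3, an exact permutation test cannot go below p = 0.1.

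**Figure D2:**
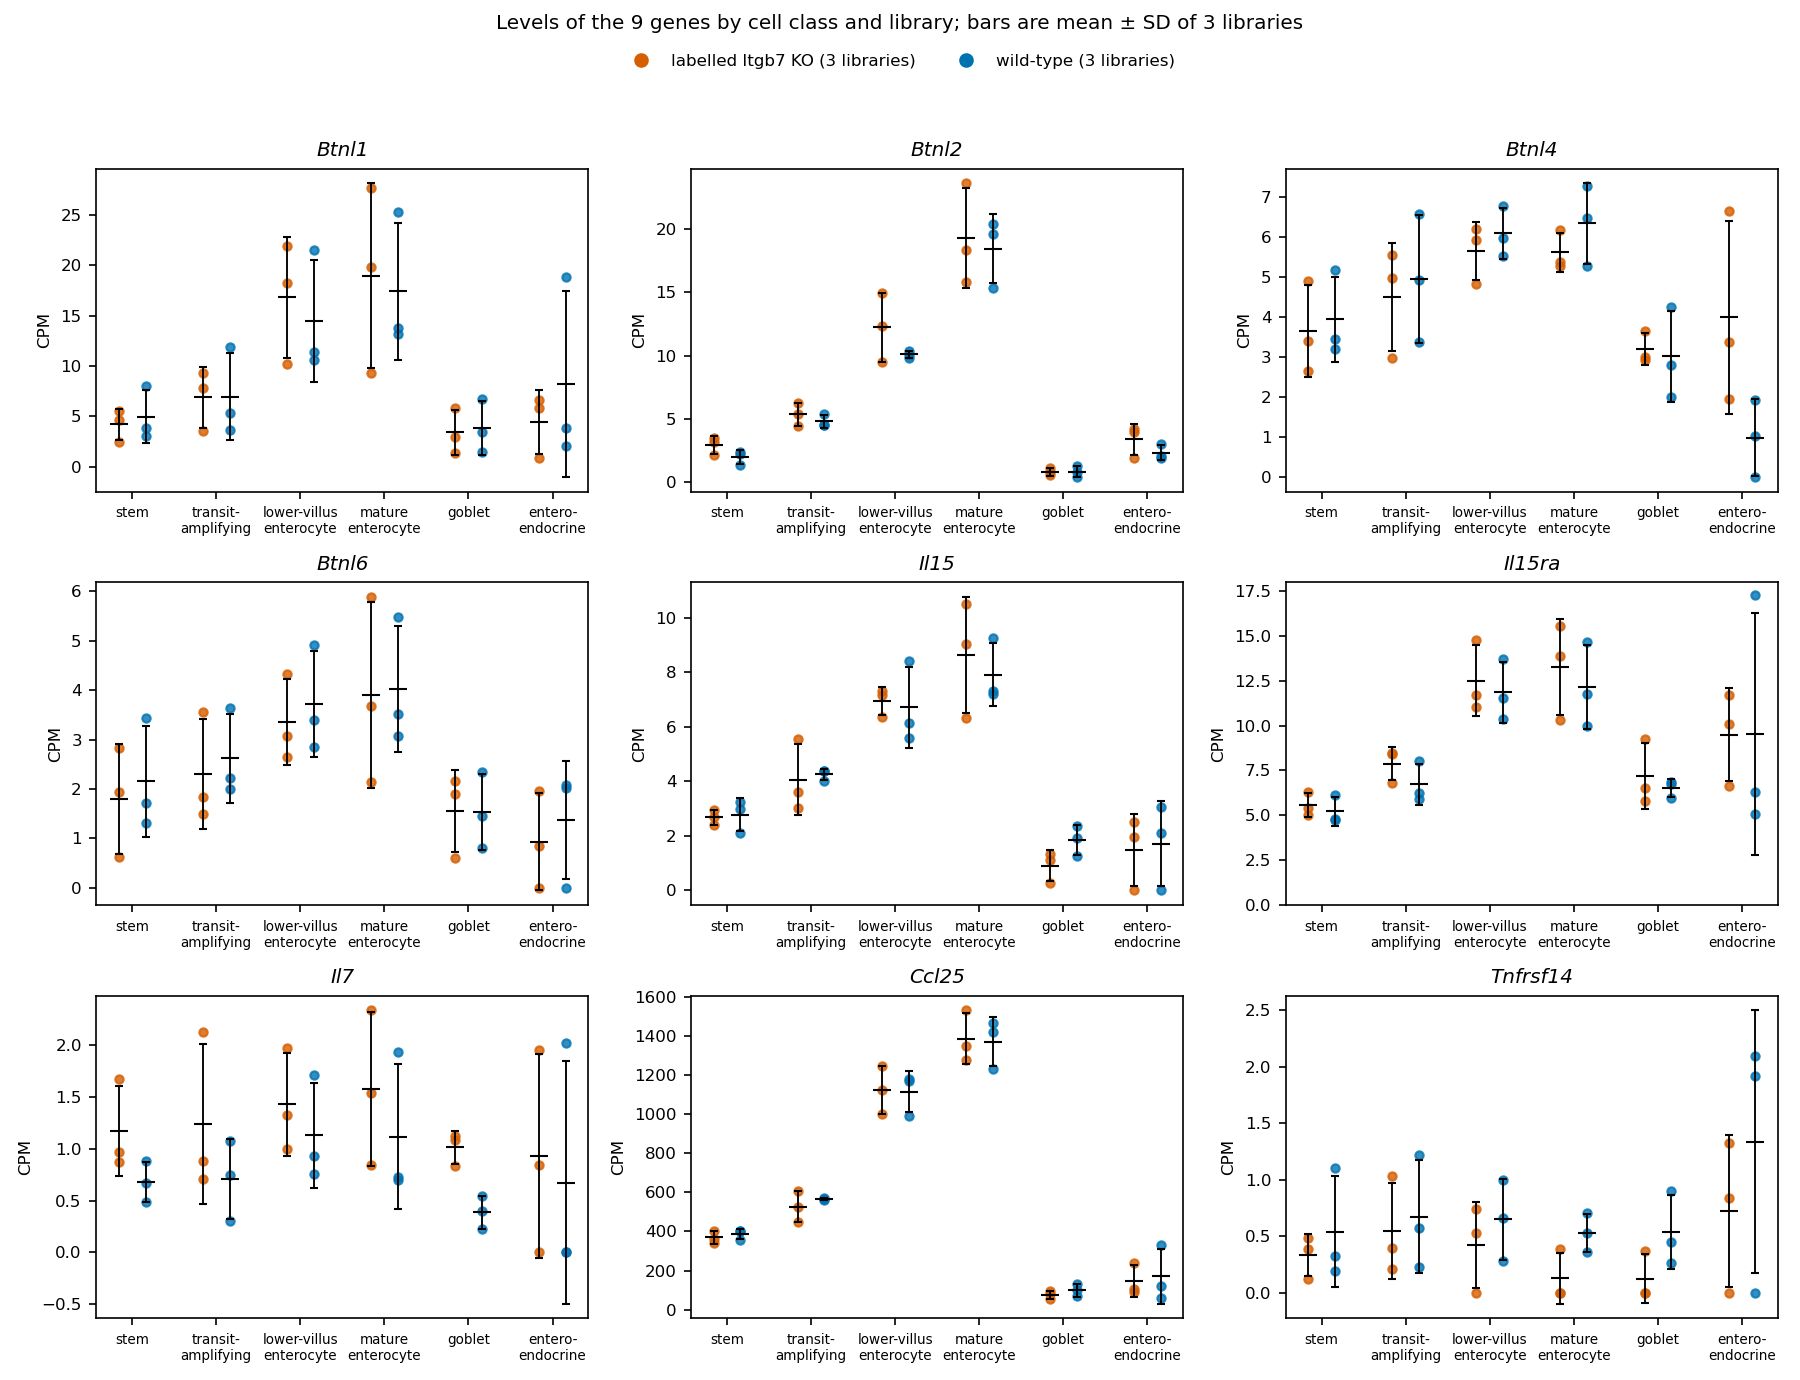
Level (CPM) of the 9 members in 6 cell classes. Each point is a library, orange for those labelled Itgb7 KO and blue for wild-type, and bars give the mean ± SD of 3 libraries. Groups overlap in nearly every class, Ccl25 and Btnl2 rise steeply from stem-like to mature enterocyte-like cells, and Il7 and Tnfrsf14 stay near 1 CPM.

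Btnl1, the partner that brings Btnl6 to the enterocyte surface, was among the higher butyrophilin-like genes in enterocytes. In mature enterocyte-like cells it stood at 9.36, 27.6 and 19.8 CPM in libraries labelled Itgb7 KO and at 13.2, 13.8 and 25.3 CPM in wild-type libraries. The groups overlapped fully, with a high library in each (log2 fold change 0.13 ± 0.36 SE, edgeR adjusted p = 0.989). In lower-villus enterocyte-like cells the levels were 10.2, 21.9 and 18.3 CPM in libraries labelled Itgb7 KO and 11.4, 10.6 and 21.5 CPM in wild-type libraries. In stem-like cells they were 2.51, 5.53 and 4.62 CPM in libraries labelled Itgb7 KO, against 3.08, 3.83 and 7.98 CPM in wild-type libraries. The same libraries were high in each class: Itgb7 KO replicate 2 and wild-type replicate 3 were the highest pair in 6 of 6 classes, and Itgb7 KO replicate 1 was the lowest in all 6.

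The spread of Btnl1 between libraries of a group was large. Its SD within groups, 0.75 on the log2 CPM scale in all kept cells, lay at percentile 95.3 of the 13556 genes tested. Btnl6 lay at percentile 87.5 and Tnfrsf14 at 92.4, against 56.6 for Btnl4, 78.3 for Il7, 28.8 for Il15ra, 21.2 for Btnl2, 19.7 for Ccl25 and 12.4 for Il15. These percentiles take no account of counts, and few UMIs alone widen such a spread. Kept cells held 168 UMIs of Tnfrsf14, 308 of Il7, 805 of Btnl6, 1339 of Il15 and 2784 of Btnl1. The pair of libraries that led Btnl1 also led Btnl6 in 5 of 6 classes and Btnl4 in 4 of 6, but Btnl2, Il15, Il15ra, Il7 and Ccl25 in none. Median UMIs per barcode were 9284 in Itgb7 KO replicate 2 and 12103 in wild-type replicate 3. In Itgb7 KO replicate 1 and wild-type replicate 1, the deepest per cell, the medians were 19529 and 22384. Those were the libraries lowest for Btnl1 in all kept cells, at 3.95 and 4.91 CPM. The part of depth or of other differences between libraries was not tested.

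**Figure D3:**
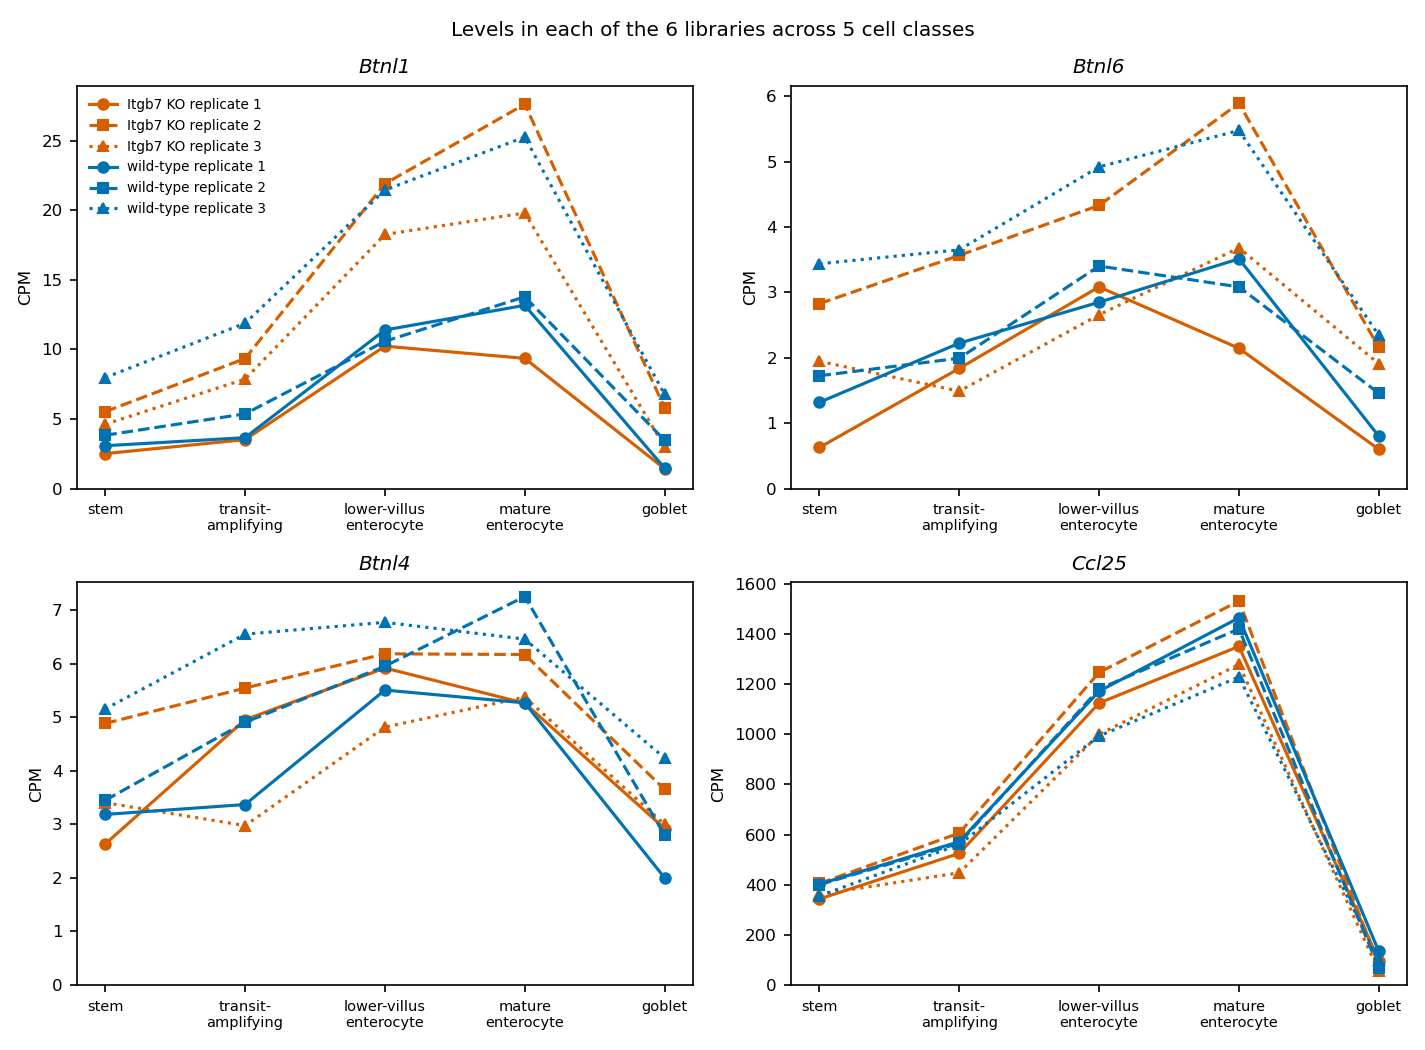
Level (CPM) of Btnl1, Btnl6, Btnl4 and Ccl25 in each library (orange, labelled Itgb7 KO; blue, wild-type; the line style marks the replicate number) across 5 cell classes. For Btnl1 the line of each library keeps much the same place from class to class, with Itgb7 KO replicate 2 and wild-type replicate 3 on top in all 5, whereas the 6 lines of Ccl25 run close together.

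Btnl6, which forms the ligand for Vγ7 receptors together with Btnl1, was lower and rose less along the villus axis. It stood at 2.14, 5.89 and 3.68 CPM in mature enterocyte-like cells of libraries labelled Itgb7 KO and at 3.51, 3.08 and 5.48 CPM in those of wild-type libraries. The groups overlapped (log2 fold change -0.02 ± 0.38 SE, edgeR adjusted p = 0.999). In stem-like cells the levels were 0.63, 2.83 and 1.95 CPM in libraries labelled Itgb7 KO and 1.32, 1.72 and 3.44 CPM in wild-type libraries, again with Itgb7 KO replicate 2 and wild-type replicate 3 highest.

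Btnl4, a further member of the family, had the smallest difference along the axis of the 4. Its mature enterocyte-like levels were 5.26, 6.17 and 5.38 CPM in libraries labelled Itgb7 KO and 5.27, 7.25 and 6.46 CPM in wild-type libraries. In goblet-like cells it was 2.92, 3.65 and 2.999 CPM in libraries labelled Itgb7 KO and 2.00, 2.80 and 4.24 CPM in wild-type libraries. The groups overlapped in both classes. Over all 6 libraries its goblet-like level was 52.0% of the mature enterocyte-like level, against 20.1% for Btnl1, 39.0% for Btnl6 and 4.47% for Btnl2.

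Btnl2, which restrains T cell activation in culture, had the lowest goblet-like share of the 4. It stood at 23.6, 18.4 and 15.8 CPM in mature enterocyte-like cells of libraries labelled Itgb7 KO and at 20.4, 19.6 and 15.3 CPM in those of wild-type libraries. The groups overlapped (log2 fold change 0.08 ± 0.23 SE, edgeR adjusted p = 0.989). Without correction for library before clustering the log2 fold change was 0.77 ± 0.26 (SE, edgeR unadjusted p = 0.0174, adjusted p = 0.653). The class was then split by library, so the groups did not hold like cells. Its largest cluster held 2, 87 and 14 cells of Itgb7 KO replicates 1, 2 and 3. Of wild-type replicates 1, 2 and 3 it held 0, 310 and 942. With doublets kept, when the class held 648 cells, the log2 fold change was 0.40 ± 0.37. In stem-like cells it was 2.13, 3.47 and 3.16 CPM in libraries labelled Itgb7 KO and 2.42, 1.34 and 2.21 CPM in wild-type libraries (log2 fold change 0.52 ± 0.34 SE, edgeR adjusted p = 0.957), on 57 and 54 UMIs. The stem-like log2 fold change was 0.26 without wild-type replicate 2 and ranged up to 0.72 when other libraries were left out. In goblet-like cells it averaged 0.84 ± 0.31 CPM in libraries labelled Itgb7 KO and 0.84 ± 0.41 CPM in wild-type libraries (SD, n = 3 each).

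Enterocyte clusters led by regional genes differed in these levels in both groups of libraries. The clusters were chosen after their values were seen, so no test is given. Cluster 24 (301 cells, mature enterocyte-like) was led by Apoa4 and cluster 3 (1462 cells, lower-villus) by Reg1, with 7 and 6 proximal markers among their 50 leading genes. Cluster 5 (1363 cells, lower-villus, led by Reg3b) and cluster 11 (961 cells, lower-villus, led by Fabp6, the ileal bile acid binding protein) each held 4 distal markers and no proximal one. Btnl2 averaged 28.1 ± 10.7, 15.6 ± 3.70, 13.1 ± 3.16 and 4.96 ± 2.70 CPM in clusters 24, 3, 5 and 11 (SD, n = 6 libraries). In the Fabp6-led cluster it stood at 7.29, 8.91 and 3.51 CPM in libraries labelled Itgb7 KO and at 4.94, 1.59 and 3.54 CPM in wild-type libraries, below the Reg1-led cluster of the same library in 6 of 6.

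Between those lower-villus clusters 11 and 3 the family divided. Btnl1 was also lower in the Fabp6-led cluster, at 13.5 ± 5.14 CPM against 19.4 ± 7.08 CPM in the Reg1-led one, in 6 of 6 libraries. Btnl4 was higher there, at 7.75 ± 1.91 CPM against 4.48 ± 0.53 CPM, in 6 of 6 libraries, and Btnl6, at 4.32 ± 1.40 CPM against 3.28 ± 1.68 CPM, in 5 of 6. Ccl25 was lower, at 1055 ± 82.8 CPM against 1288 ± 150 CPM, in 6 of 6, and Il7 higher, at 2.64 ± 1.16 CPM against 0.80 ± 0.77 CPM, in 5 of 6, on 26 and 12 UMIs. Il15 and Il15ra were higher in the Fabp6-led cluster in 4 and 3 of 6 libraries. Part of this pattern was also seen without distal markers. Cluster 20 (599 cells, lower-villus, led by Rbp7) held 0 of them. There Btnl4 averaged 9.76, Btnl2 6.92, Btnl1 10.4 and Ccl25 858 CPM, but Btnl6 3.23 and Il7 0.13 CPM. In cluster 5, which held distal markers, Btnl1 averaged 17.0 and Ccl25 1241 CPM. Btnl4 was higher in cluster 11 than in cluster 5 in 4 of 6 libraries.

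**Figure D4:**
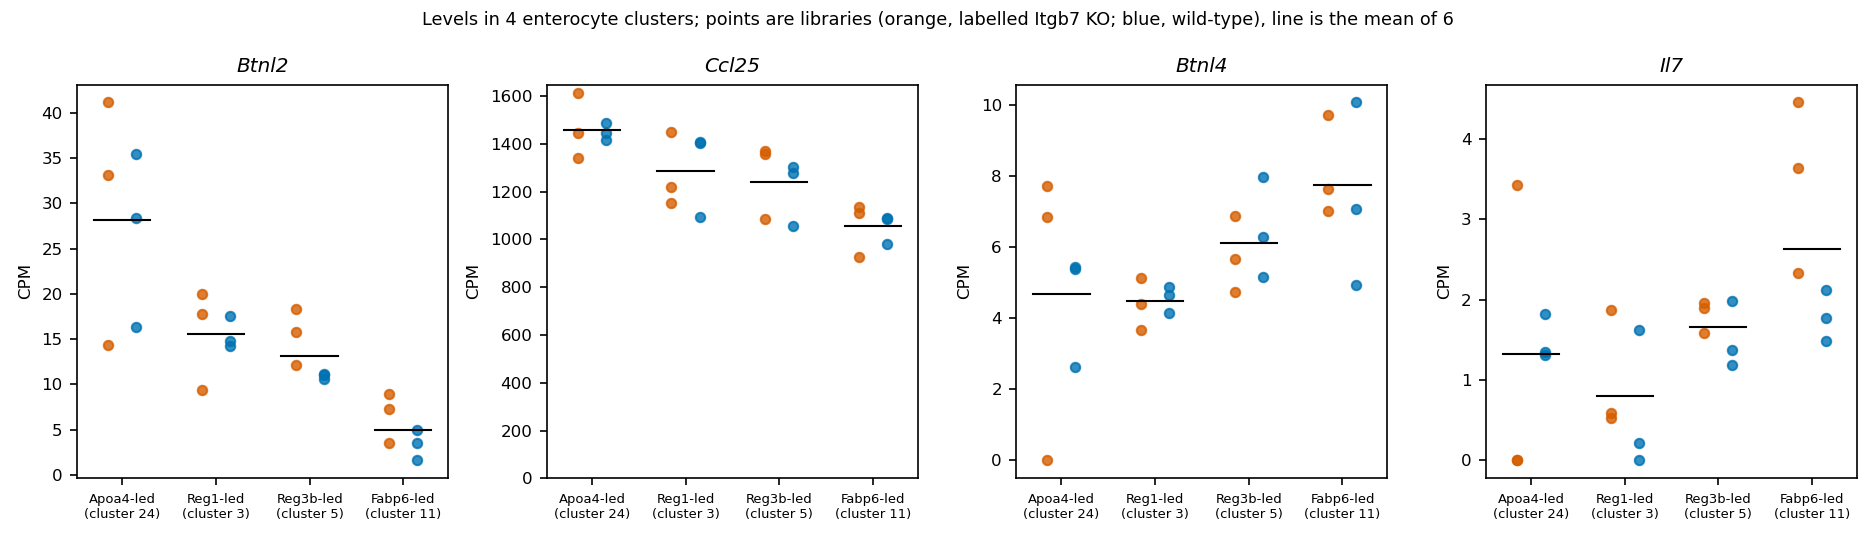
Level (CPM) of Btnl2, Ccl25, Btnl4 and Il7 in 4 enterocyte clusters, named by their leading gene. Points are libraries (orange, labelled Itgb7 KO; blue, wild-type) and lines the mean of 6. Btnl2 averages 4.96 CPM in the Fabp6-led cluster and 28.1 CPM in the Apoa4-led one, while Btnl4 averages 7.75 CPM in the Fabp6-led cluster, its highest mean of the 4.

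Ccl25, the chemokine of small-intestinal homing, was by far the most abundant member, with 198256 UMIs in kept cells. In mature enterocyte-like cells it stood at 1350, 1531 and 1278 CPM in libraries labelled Itgb7 KO and at 1464, 1420 and 1228 CPM in wild-type libraries. The groups overlapped fully, and the estimate was narrow (log2 fold change 0.02 ± 0.16 SE, edgeR adjusted p = 0.995). In stem-like cells it was 343, 405 and 361 CPM in libraries labelled Itgb7 KO and 402, 400 and 355 CPM in wild-type libraries. Over all 6 libraries stem-like cells averaged 378 ± 27.7 CPM, transit-amplifying-like 546 ± 54.7, lower-villus enterocyte-like 1119 ± 103 and mature enterocyte-like cells 1378 ± 115 CPM, a rise from each class to the next in 6 of 6 libraries. Goblet-like cells held 88.7 ± 27.9 CPM and enteroendocrine-like cells 158 ± 104 CPM.

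The goblet-like level of Ccl25 was 6.44% of that in mature enterocyte-like cells. The 14 mature enterocyte markers that reached 10 CPM in their own class stood in goblet-like cells at a median of 3.82% of that level (1.77% to 58.1%). Krt20 (58.1%) and Fabp2 (51.3%) were the highest, and Mep1a was next at 7.88%. Ccl25 and Btnl2 (4.47%) lay within the range of these markers, but so did Il15ra (53.9%), so the full range sets little apart. No class was known to lack Ccl25, and the part of free RNA in its goblet-like level was not tested. In stem-like cells Ccl25 stood at 27.4% of the mature enterocyte-like level, against 1.69% to 40.3% (median 4.07%) for the same markers. Of these only Mep1a (40.3%) stood above Ccl25, and the next was Slc5a1 at 17.0%. When every cell was thinned to 2000 UMIs, 53.4% of stem-like, 64.8% of transit-amplifying-like, 86.1% of lower-villus and 91.0% of mature enterocyte-like cells kept a Ccl25 UMI, against 13.9% of goblet-like and 16.4% of Paneth-like cells. Before thinning the shares were 95.4%, 98.4%, 99.6% and 99.8%, and 56.4% and 81.4%, at median depths of 11352, 13883, 10470.5 and 10952, and 11775 and 26839.5 UMIs. Thinning left out 121 cells, all of Itgb7 KO replicate 3.

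Il15, the cytokine that sustains intraepithelial lymphocytes, was low but followed the same axis. Its mature enterocyte-like levels were 10.5, 6.31 and 9.06 CPM in libraries labelled Itgb7 KO and 7.20, 9.25 and 7.30 CPM in wild-type libraries. The groups overlapped (log2 fold change 0.13 ± 0.26 SE, edgeR adjusted p = 0.984). Over 6 libraries it averaged 2.72 ± 0.43 CPM for stem-like cells, 4.16 ± 0.85 CPM for transit-amplifying-like cells, 6.83 ± 1.004 CPM for lower-villus and 8.27 ± 1.59 CPM for mature enterocyte-like cells, and 1.38 ± 0.72 CPM for goblet-like cells.

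Il15ra, its presenting chain, was less confined to enterocytes. In mature enterocyte-like cells it stood at 10.3, 13.9 and 15.6 CPM in libraries labelled Itgb7 KO and at 10.0, 14.7 and 11.8 CPM in wild-type libraries. The groups overlapped (log2 fold change 0.13 ± 0.21 SE, edgeR adjusted p = 0.974). Over 6 libraries it averaged 5.40 ± 0.69 CPM for stem-like cells, 7.31 ± 1.136 CPM for transit-amplifying-like cells, 12.2 ± 1.69 CPM for lower-villus and 12.7 ± 2.33 CPM for mature enterocyte-like cells. The goblet-like class held 6.86 ± 1.25 CPM and enteroendocrine-like cells 9.51 ± 4.56 CPM. The goblet-like level was 53.9% of the mature enterocyte-like one, against 16.7% for Il15.

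Il7 was near the limit of detection, with 308 UMIs in kept cells. In all kept cells it stood at 1.15, 1.22 and 1.31 CPM in libraries labelled Itgb7 KO and at 0.94, 0.51 and 0.67 CPM in wild-type libraries. Every library labelled Itgb7 KO was above every wild-type library, as for 2.57% of all genes tested (2.85% lay the other way, as 0 members did), but Il7 did not pass the test (log2 fold change 0.72 ± 0.33 SE, edgeR unadjusted p = 0.0649, adjusted p = 0.951). The UMIs behind the levels were 169 in libraries labelled Itgb7 KO and 139 in wild-type libraries. Without wild-type replicate 1 the log2 fold change was 1.12, and it was still not called (adjusted p = 0.9995, edgeR). Means over 6 libraries ran from 0.70 ± 0.37 CPM in goblet-like to 1.35 ± 0.70 CPM in mature enterocyte-like cells.

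Tnfrsf14, the HVEM receptor, had 168 UMIs in kept cells, 60 in libraries labelled Itgb7 KO and 108 in wild-type libraries. Its levels in all kept cells were 0.38, 0.53 and 0.34 CPM in libraries labelled Itgb7 KO and 0.38, 0.31 and 1.03 CPM in wild-type libraries. Wild-type replicate 3 alone stood high, and the rest overlapped (log2 fold change -0.46 ± 0.49 SE, edgeR adjusted p = 0.951). Without that library the log2 fold change was 0.20. In no class was it testable at this depth.

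The order of the classes was then compared for every member. With the main settings, mature enterocyte-like cells came first and lower-villus enterocyte-like cells second for 8 of 9 members. The exception was Tnfrsf14, whose means lay between 0.33 and 1.03 CPM. None of the 45 neighbouring pairs in these orders passed the exact 2-sided sign-flip permutation test after adjustment over all 45 (lowest adjusted p = 0.0938). In 15 pairs the unadjusted p was 0.0313, the smallest that 6 libraries allow, and these included every step of Ccl25 from mature enterocyte-like down to enteroendocrine-like cells and all but 1 step of Btnl2. The mature and lower-villus enterocyte-like levels of Btnl1, Btnl4, Btnl6, Il15, Il15ra and Il7 did not differ beyond their spread by this exact test (p = 0.0625 to 0.844). The line between these classes was thin. Cluster 4 (1423 mature enterocyte-like cells) held 3 markers of each among its 50 leading genes, and cluster 3 (lower-villus) 5 mature and 4 lower-villus ones. Means were lower in cluster 4 than in cluster 3 for Btnl1 (15.3 against 19.4 CPM), Btnl2 (13.7 against 15.6 CPM) and Ccl25 (1232 against 1288 CPM). So were those of Il15 and Il15ra, while Btnl4 (7.19 against 4.48 CPM), Btnl6 and Il7 were higher. The class that came first also changed with the settings. With doublets kept it was lower-villus enterocyte-like for Btnl4, Btnl6, Il15ra and Il7. Without correction for library it was lower-villus enterocyte-like for Btnl4 and Il7. At 2000 UMIs per cell it was lower-villus enterocyte-like for Btnl6 and stem-like for Il7.

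Between the ends of the axis the differences were clear for 7 members. Within each library, the log2 ratio of mature enterocyte-like over stem-like cells (CPM + 1) was 2.54 ± 0.46 for Btnl2, 1.86 ± 0.07 for Ccl25, 1.76 ± 0.23 for Btnl1, 1.31 ± 0.31 for Il15, 1.09 ± 0.23 for Il15ra, 0.76 ± 0.18 for Btnl6 and 0.56 ± 0.25 for Btnl4 (SD, n = 6), each above 0 in 6 of 6 libraries. Each had the smallest possible exact sign-flip p of 0.0313, 0.0402 after adjustment over 9 members, a value set by how many members reach that p. Il7 (0.26 ± 0.39, 4 of 6 libraries, adjusted p = 0.246) and Tnfrsf14 (-0.11 ± 0.39, 3 of 6, adjusted p = 0.5) did not pass the exact test. The pseudocount of 1 CPM understates ratios of low genes, and with 10 CPM the mean ratio was 1.84 for Ccl25, 1.21 for Btnl2, 0.92 for Btnl1, 0.56 for Il15ra, 0.52 for Il15, 0.22 for Btnl6 and 0.21 for Btnl4. The order of the members by ratio thus depends on the pseudocount, and the same 7 passed the exact test. With putative doublets kept or without the correction for library before clustering, the ratio of Btnl4 was -0.02 and -0.01. The direction of its difference thus depended on those settings, which also changed the cells that bore the class name. With doublets kept, the mature enterocyte-like class was an Apoa4-led cluster of 648 cells alone, against 2852 cells in the main clustering. With doublets kept no member passed (lowest adjusted p = 0.0563). Btnl1, Btnl2, Il15, Il15ra and Ccl25 were still above 0 in 6 of 6 libraries there, at the smallest possible sign-flip p of 0.0313. Their adjusted p rests on how many of the 9 members reach that p, so the missed threshold says nothing of each gene alone.

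**Figure D5:**
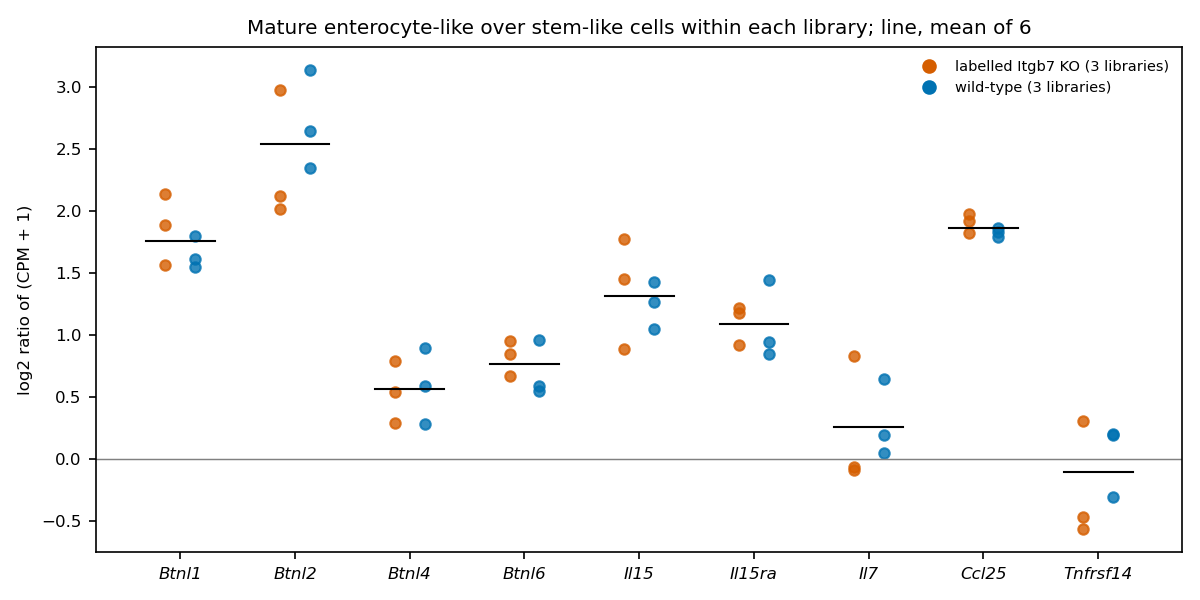
log2 ratio of mature enterocyte-like over stem-like levels (CPM + 1) within each library, orange for those labelled Itgb7 KO and blue for wild-type, with the mean of 6 libraries as a line. Ratios lie above 0 in every library for 7 members, from a mean of 2.54 for Btnl2 to 0.56 for Btnl4, and the colours mix. With a pseudocount of 10 CPM Ccl25 has the highest mean, 1.84.

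Whether that slope differed between the groups was tested directly. Of 8 members tested, 0 passed edgeR's test of the class by genotype term, against 0% of 11313 genes, and all adjusted p were 0.999. The lowest unadjusted p was that of Btnl1 (0.129), whose difference of log2 fold changes was 0.39 ± 0.25 (SE). Its log2 ratio of mature enterocyte-like over stem-like cells averaged 1.86 ± 0.29 in libraries labelled Itgb7 KO and 1.65 ± 0.13 in wild-type libraries (SD, n = 3 each, exact permutation p = 0.3). For Ccl25 the averages were 1.90 ± 0.08 in libraries labelled Itgb7 KO and 1.82 ± 0.04 in wild-type libraries (exact permutation p = 0.3).

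Genes with the most similar pattern were sought among 7510 genes over 36 sums of 6 classes and 6 libraries, which share libraries and depth, so correlations are given as a description. Ccl25 was closest to H2-T3 (r = 0.99), which encodes the thymus leukaemia antigen bound by CD8αα on intraepithelial lymphocytes, and to Atp5o (0.99), a subunit of ATP synthase. Btnl2 was closest to Casp6 (0.98) and Apob (0.97), Il15 to Aqp11 (0.93) and Slc35f2 (0.92), Btnl1 to Dirc2 (0.89) and Tmem98 (0.88), and Btnl4 to Myd88 (0.88), an adaptor of Toll-like receptors, and Slc35d1 (0.84). Btnl6 was closest to Rara (0.86), a retinoic acid receptor, and Dsg2 (0.85), and Il15ra to Prr13 (0.85) and Secisbp2l (0.84). The best values were lower for Tnfrsf14 (Mark2, 0.75, and Grb2, 0.71) and Il7 (H2-DMa, 0.72, and Pomp, 0.63).

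Related genes were read from 5 lists, and 0 genes of any list passed edgeR's test in any class or in all kept cells. Of the other epithelial cytokines and chemokines that act on lymphocytes, 14 of 16 were tested in all kept cells, with a median log2 fold change of 0.11 (-0.01 for all genes). Il18, which encodes an inflammasome cytokine, averaged 53.9 ± 14.8 CPM in libraries labelled Itgb7 KO and 61.2 ± 11.4 CPM in wild-type libraries, and Il10rb, a receptor subunit, 42.8 ± 5.78 CPM in libraries labelled Itgb7 KO and 40.6 ± 2.75 CPM in wild-type libraries (SD, n = 3 each). Of the co-signalling molecules, NKG2D ligands, TL and CD1d, 10 of 17 were tested, with a median of 0.08. Epcam, an epithelial adhesion molecule, averaged 1676 ± 185 CPM in libraries labelled Itgb7 KO and 1585 ± 153 CPM in wild-type libraries, and Lgals9, which encodes galectin-9, 451 ± 42.4 CPM in libraries labelled Itgb7 KO and 352 ± 28.8 CPM in wild-type libraries. At an unadjusted p of 0.05 the counts in all kept cells were 2 of the 14 cytokines and chemokines and 0 of this list, against 3.1% of all genes tested.

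Of 13 transcription factors reported for these genes in epithelium, all were tested in all kept cells, with a median of 0.05. Cdx1 averaged 193 ± 11.5 CPM in libraries labelled Itgb7 KO and 225 ± 26.2 CPM in wild-type libraries, and Cdx2, its partner in intestinal identity, 157 ± 25.8 CPM in libraries labelled Itgb7 KO and 161 ± 13.6 CPM in wild-type libraries. Of 12 receptors and ligands on the lymphocyte side, 6 were tested, with a median of -0.09, led by Ltbr, the lymphotoxin β receptor that epithelial cells also express, at 48.0 ± 7.15 CPM in libraries labelled Itgb7 KO and 57.6 ± 7.93 CPM in wild-type libraries. Ltb followed at 0.51 ± 0.25 CPM in libraries labelled Itgb7 KO and 0.40 ± 0.09 CPM in wild-type libraries. The counts at an unadjusted p of 0.05 were 0 of the transcription factors and 2 of the 6 receptors and ligands, against 3.1% of all genes tested. Those 2, named after their values were seen, were Itgb7, the gene of the knockout label, which was higher under that label (log2 fold change 3.10 ± 0.50 SE, edgeR adjusted p = 0.587), and Ccr9, the receptor of CCL25 (-1.27 ± 0.34 SE, adjusted p = 0.951). Of the other butyrophilin family genes, 0 of 5 had enough UMIs for a test, and Btnl9 (43 UMIs) and Btn1a1 (11 UMIs) were the highest.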

How the data were processed

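The authors deposited UMI counts per gene and cell barcode, made with bcl2fastq 2.17.1.14 and Cell Ranger 2.1.1 on mm10, with Seurat also named, per the submitters' processing notes. Barcodes with at least 500 genes, 1000 UMIs and at most 25% mitochondrial UMIs were kept, and 969 putative doublets, scored with scanpy 1.11.5, were removed. Cells were clustered by the Leiden method (2000 variable genes, 30 components, a Harmony-type correction for library, resolution 1.5), leaving out 72 genes, the members and the listed genes together. Classes were named from marker genes, so shares may differ from the study's. Counts were summed per library and class and tested with edgeR 4.0.16 (TMM, quasi-likelihood, Benjamini-Hochberg over all genes, R 4.3.3), with DESeq2 1.42.0 as an alternative. The members and lists were chosen with earlier results of these data known. Genes named beside the members were the 2 of highest mean CPM per list, or the 2 closest in pattern. Replicate numbers are not said to pair the libraries, so the main genotype tests were unpaired and a replicate block was an alternative. Deviations of same-numbered libraries correlated at 0.66, 0.28 and 0.28. Itgb7 KO replicate 3 correlated more with wild-type replicate 2 (0.48), and Itgb7 KO replicate 2 with wild-type replicate 3 at 0.26. Without correction for library, cells of replicate 1 of both groups clustered apart. A cluster of 918 cells held 416 of Itgb7 KO replicate 1 and 500 of wild-type replicate 1. Errors are SD over libraries or the SE of the fit.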

Additional observations from a re-analysis of the deposited data

How the results depend on the processing

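Under 17 alternatives 0 members were called in any class. The number of all genes called ranged from 0 to 25 in all kept cells, 0 to 43 in goblet-like, 0 to 18 in lower-villus enterocyte-like, 0 to 10 in stem-like and enteroendocrine-like, 0 to 5 in transit-amplifying-like and 0 to 4 in mature enterocyte-like cells, against 0 or 1 per class in the report. DESeq2 gave up to 25 and the serial numbers as a block of 3 groups 3 to 43. What the serial numbers count and which libraries each group held are not given here, so that block is not read as a known batch. With the replicate number as a block Il7 in all kept cells stood at 0.78 ± 0.29 (SE, edgeR unadjusted p = 0.0325, adjusted p = 0.654), and the block changed no call of a member. With doublets kept, the mature over stem-like log2 ratio no longer passed for Btnl1 (1.78), Btnl2 (2.66), Btnl6 (0.40), Il15 (1.63), Il15ra (0.78) and Ccl25 (1.83). That of Btnl4 turned to -0.024. All of these but Btnl4 and Btnl6 were still above 0 in 6 of 6 libraries. Their adjusted p (0.0563, exact sign-flip test) rests on how many members reach the smallest p. The mature enterocyte-like class held 648 cells under that setting. Without correction for library, when the mature enterocyte-like class was split by library, Btnl4 (-0.014) and Il7 (-0.073) turned. At 2000 UMIs per cell Btnl4 (0.91) no longer passed and Il7 turned to -0.36. The causes were not tested.

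Fold changes near 0 turned sign. With the serial numbers as a block of 3 groups, Btnl2 (-0.0076), Ccl25 (-0.057) and Btnl6 (0.17) turned in mature enterocyte-like cells, Btnl4 (0.066), Btnl6 (0.12), Ccl25 (-0.013), Il15 (-0.077) and Tnfrsf14 (0.26) in all kept cells, and Btnl6 in lower-villus (0.11), stem-like (0.040) and transit-amplifying-like cells (0.15). At 2000 UMIs per cell Btnl1 (-0.22), Btnl6 (0.11) and Il15 (-0.19) turned in all kept cells and Btnl2 (-0.19) in mature enterocyte-like cells. With doublets kept Btnl1 (-0.025, mature), Btnl6 (0.062, stem-like) and Il15 (-0.013, all kept) turned, without correction for library Btnl4 (0.0032) and Btnl6 (0.15) in mature cells, at resolution 0.8 Btnl4 (0.023, mature), and without the filter on low counts Il15 (-0.0018, all kept).

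Leaving out each library in turn, ranges in all kept cells were -0.25 to 0.62 for Btnl1, -0.24 to 0.089 for Btnl4, -0.50 to 0.24 for Btnl6, -0.079 to 0.099 for Ccl25, -0.048 to 0.083 for Il15, 0.49 to 1.12 for Il7 and -0.78 to 0.20 for Tnfrsf14. In mature enterocyte-like cells they were -0.23 to 0.47 for Btnl1, -0.12 to 0.21 for Btnl2, -0.46 to 0.26 for Btnl6, -0.077 to 0.12 for Ccl25 and -0.10 to 0.37 for Il15. Btnl6 ranged from -0.32 to 0.12 in lower-villus, -0.86 to 0.18 in stem-like and -0.57 to 0.15 in transit-amplifying-like cells, Il15ra from -0.049 to 0.28 in goblet-like and Ccl25 from -1.09 to 0.81 in enteroendocrine-like cells. Depth limits Il7 and Tnfrsf14, which had at most 76 and 43 UMIs in any class.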

Other observations

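Paneth-like cells (318) and tuft-like cells (109) fell under 20 cells in at least 1 library and were not tested. Ccl25 averaged 100.5 ± 20.9 CPM in Paneth-like and 225 ± 105 CPM in tuft-like cells over 6 libraries (SD, 1603 and 289 UMIs). Btnl1 averaged 4.20 ± 2.50 CPM in Paneth-like cells, on 44 UMIs, and Il15ra 11.3 ± 8.42 CPM in tuft-like cells, on 10 UMIs.

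Ccr9, the receptor of CCL25, was chosen for mention after its values were seen. It had 114 UMIs in kept cells, with 0.22, 0.19 and 0.15 CPM in libraries labelled Itgb7 KO and 0.31, 0.53 and 0.55 CPM in wild-type libraries. Every library labelled Itgb7 KO was below every wild-type library, as for 2.85% of all genes tested, and it did not pass edgeR's test (log2 fold change -1.27 ± 0.34 SE, adjusted p = 0.951).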
